A study of Mus musculus with 12 samples.

Results

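Mitosis and G2/M genes encode the machinery with which a cell condenses, attaches and parts its chromosomes, and 50 such genes were followed here in cultured cardiac progenitor cells (CPCs). The members were listed by name, by a rule that uses no level, and were assigned by their known roles to a cyclin and kinase class (15 genes), a spindle class (17 genes), a kinetochore class (9 genes) and a chromosome condensation class (9 genes). All 50 were found among the 21729 genes of the count table, 14462 of them with at least 1 count. Full-length cDNA of 12 single cells, which form 1 group, was made with the Smart-Seq v4 kit and sequenced. The CPCs came from FVB mice labelled as female and 12 weeks old, as c-Kit+ cells taken magnetically from the non-myocyte fraction of the heart after depletion of blood lineage (Lin) cells, with the cells of a pair of hearts pooled. They grew on gelatin with fetal bovine serum, LIF, bFGF and EGF, were passaged 5 times at about 40% confluency, and single cells were drawn up by hand. The series addressed how culture alters such cells. Fresh cells were not analysed here, and the labels name neither a culture nor an animal for each cell, so the 12 cells are described one by one, no test was made across them and every SD is a spread between single cells.

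Entry into mitosis is driven by the kinase Cdk1 bound to a B-type cyclin, and exit follows when the anaphase-promoting complex marks the cyclins and other proteins for destruction. Between these steps microtubules and motors build the spindle, kinetochores tie each chromosome to it, and condensins and topoisomerase II compact the DNA. Most genes of this programme are held silent early in the cycle and transcribed in S and G2 by the DREAM, B-MYB and FOXM1 complexes, which act through a promoter sequence called the cell cycle genes homology region (CHR element) and, with the factor NF-Y, through CCAAT boxes.

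Promoter sequence is therefore shown first, for 7 members whose levels are described below. Bases are RefSeq sequence of GRCm38.p6 (the build mm10), written 5′ to 3′ along the strand of the gene. Capitals mark a CCAAT box (CCAAT, or ATTGG where it lies on the other strand) or a CHR element (TTTGAA or TTCGAA, or TTCAAA for the first on the other strand). Positions count from the RefSeq start, the base before it being -1.
Ccnb2 (chr9:70421559-70421653, minus strand, bases -99 to -5): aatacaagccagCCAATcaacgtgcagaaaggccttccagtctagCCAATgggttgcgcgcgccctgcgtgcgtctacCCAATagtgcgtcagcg
Cdk1 (chr10:69352913-69353004, minus strand, bases -92 to -1): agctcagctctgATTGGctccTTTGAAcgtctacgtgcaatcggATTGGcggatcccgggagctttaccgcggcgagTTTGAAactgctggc
Ube2c (chr2:164769829-164769917, plus strand, bases -100 to -12): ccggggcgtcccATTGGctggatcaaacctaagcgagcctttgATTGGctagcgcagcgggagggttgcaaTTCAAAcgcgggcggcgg
Cdc20 (chr4:118437344-118437408, minus strand, bases -65 to -1): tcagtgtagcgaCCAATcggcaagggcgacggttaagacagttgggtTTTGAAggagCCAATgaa
Top2a (chr11:99024195-99024350, minus strand, bases -161 to -6): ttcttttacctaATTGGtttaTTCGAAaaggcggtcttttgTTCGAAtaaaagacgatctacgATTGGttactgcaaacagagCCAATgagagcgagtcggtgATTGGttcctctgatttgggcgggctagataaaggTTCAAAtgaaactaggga
Mki67 (chr7:135716460-135716532, minus strand, bases -153 to -81): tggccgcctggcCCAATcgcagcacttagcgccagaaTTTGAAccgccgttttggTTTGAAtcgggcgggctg
Tubb4b (chr2:25224705-25224836, minus strand, bases -134 to -3): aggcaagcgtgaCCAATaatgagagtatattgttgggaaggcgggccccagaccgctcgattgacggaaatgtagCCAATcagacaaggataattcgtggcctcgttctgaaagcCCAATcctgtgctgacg
The stretch of Ccnb2 held 3 CCAAT boxes, at -87, -54 and -21, and its CHR elements lay outside it, at -167 and just after the start. That of Cdk1 held 2 of each motif, and that of Top2a 4 CCAAT boxes and 3 CHR elements. Further matches lay upstream of the printed stretches of Cdk1, Ube2c, Top2a, Mki67 and Tubb4b. The tubulin gene Tubb4b showed 3 CCAAT boxes in the stretch printed, and its only CHR element lay further upstream, at -198.

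A RefSeq promoter entry was matched for 44 of the 50 members. The entries not matched were those of Aurkb, Cdc25c, Cdca2, Dlgap5, Smc4 and Tpx2. In the 250 bases before the start, on either strand, 34 of 44 members (77.3%) had a CCAAT box, against 37.5% of the 27025 genes with an entry and 40.3% of the 11030 of them that had a count here. At least 2 CCAAT boxes were present in 26 members (59.1%), against 11.5% and 14.5%. A CHR element was present in 21 members (47.7%), against 19.6% and 14.9%, and both motifs together in 19 members (43.2%), against 7.00% and 5.82%.

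The CHR element was also counted by class, in small numbers of genes. Each of the 7 condensation genes with an entry had one before the start, as did 9 of 15 spindle genes and 5 of 13 cyclin and kinase genes, while none of the 9 kinetochore genes did. When the 50 bases after the start were added, 6 of the 9 kinetochore genes held one (Ndc80, Cenpf, Cenpa, Hjurp, Cdca8 and Rangap1). So did 9 of 13 cyclin and kinase genes, 13 of 15 spindle genes and the 7 condensation genes. Matches only after the start were thus seen in other classes too, as in Aurka, Bub1, Cdca3, Ttk, Hmmr and Kif23. The count over all members became 35 of 44 (79.5%), against 21.7% of all genes. For 4 members RefSeq gives more than 1 window, and a site found in several windows was counted once, from the most downstream start. Of the 47 CHR matches in these 35 genes, 32 began no more than 50 bases before the start and 19 of these at or after it. The 94 CCAAT matches were spread over 34 genes, with a median position of -71, whereas the median CHR position was -19. A match of these letters is a description of the sequence and no measure of binding.

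**Figure D1:**
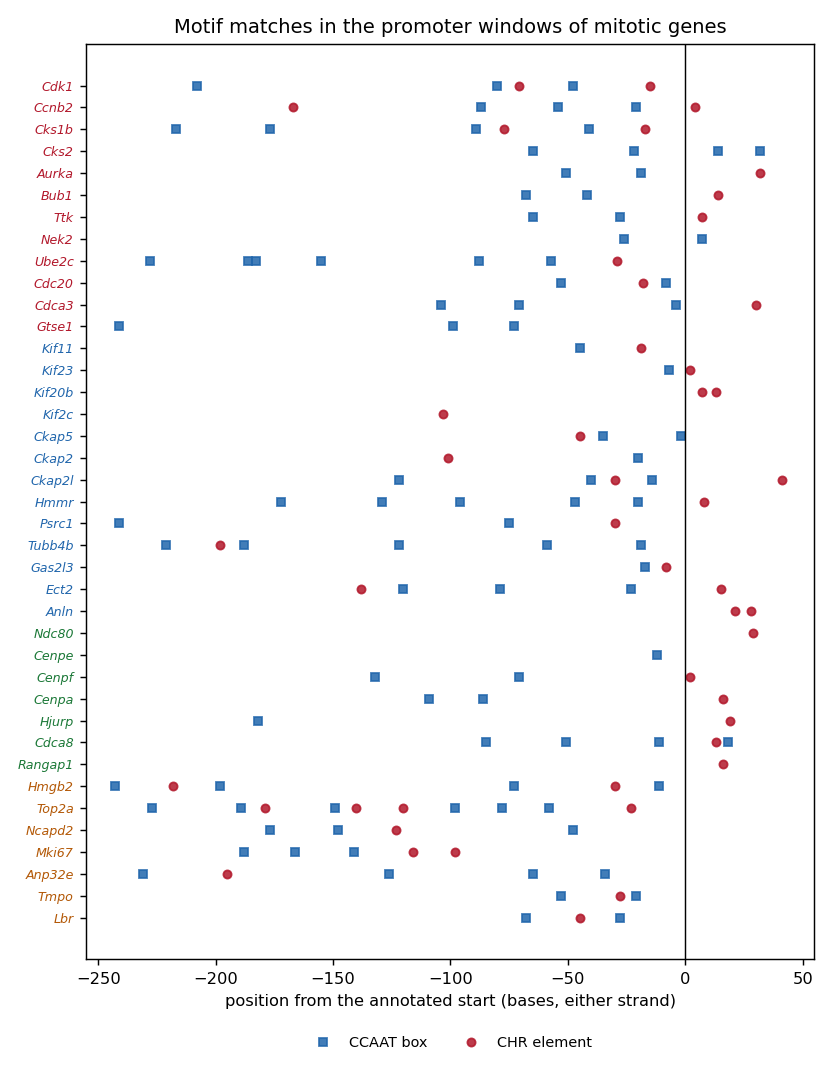
Position of each CCAAT box (blue squares) and CHR element (red circles) in the promoter windows of the members with a match, in bases from the RefSeq start, with gene names coloured by class. CCAAT boxes lie mostly upstream of the start (median -71) and CHR elements close to it (median -19). The CHR elements of the kinetochore genes (green names) begin at or after the start, as do some of other classes.

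Depth and identity of the cells bear on every value below. The total count ran from 3453708 in cell 1 to 5690184 in cell 12, and levels are given as CPM, the counts of a gene per 1000000 counts of its cell. A count of 0 allows up to 3 counts, which is 0.869 CPM in cell 1 and 0.527 CPM in cell 12. Reads were not tagged by molecule, so such limits and all intervals cover counting error only. The cells did not fully match their label as female, since Y-linked genes were counted in all 12 cells (summed 9.76 to 267 CPM). Kit, the receptor by which the cells were sorted before culture, was counted in cell 10 alone (3.94 CPM). The study itself reported comparatively low levels of known CPC markers in cultured CPCs. Cell 10 had 8 of 10 endothelial markers at a sum of 7565 CPM, with Cldn5 and Vwf at 0, against at most 47.4 CPM in any other cell, and it had the lowest fibroblast marker sum (218 CPM, against 709 to 6764 CPM). Cell 3 had the highest haematopoietic marker sum, at 1623 CPM against at most 76.3 CPM elsewhere, most of it from Cd53 while Ptprc was at 0. Cell 11 had the highest mural marker sum (3737 CPM), nearly all from Acta2, and the cardiomyocyte marker sum was at most 86.6 CPM, with Myh6 and Myh7 at 0 in every cell. The part of these cells in the results was not tested. Values without cells 3 and 10 are given where they move for sums and counts of members. Medians and ratios of single genes rest on all 12 cells.

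Mitotic transcripts made up a very unequal share of the messenger RNA of the 12 cells. The summed level of the 50 members was lowest in cell 11 at 898 CPM, had a median of 2813 CPM (SD 5313, 12 cells) and was highest in cell 9 at 17533 CPM. The members thus held 0.0898% of all counts in cell 11 (0.0873 to 0.0923%) and 1.75% in cell 9 (1.74 to 1.77%), the ranges being exact binomial intervals at 95%. After cell 9 came cell 5 (11950 CPM), cell 8 (9329 CPM), cell 1 (6668 CPM) and cell 2 (5861 CPM). The next was cell 6 at 3173 CPM, followed by cell 4 (2452 CPM), cell 12 (1808 CPM), cell 10 (1242 CPM), cell 3 (963 CPM) and cell 7 (961 CPM). Intervals of neighbours in this order did not overlap, except for cells 3 and 7, at 0.0963% (0.0932 to 0.0995%) and 0.0961% (0.0935 to 0.0988%). The intervals treat each read as independent, though reads were not tagged by molecule. They may therefore be too narrow and do not settle the order of the cells. The highest cell was 6.23 times the median cell. Without cells 3 and 10 the median was 4517 CPM and the ratio 3.88.

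Detection followed the same order more loosely. Every member had a count in cells 1, 2, 5 and 9, 49 in cells 4 and 8, 48 in cell 6, 44 in cell 12, 42 in cell 3, 38 in cell 10, 35 in cell 7 and 31 in cell 11. Genes of the whole table with a count ran from 10022 in cell 8 to 11950 in cell 1, with 10069, 10057, 10181 and 10036 in cells 7, 10, 11 and 12, so fewer genes of any kind were counted in those cells and in cell 8. With all cells thinned to the total of cell 1, cell 7 had 33, cell 11 had 30 and cell 12 had 42, and the other cells kept their counts. At a level of 100 CPM or more there were 43 members in cell 9, 35 in cell 5 and 33 in cell 8, but 1 each in cells 3 and 11. Of the 600 values, 64 were 0. A count in every cell was found for 21 of the 50 members, a share of 42% where 53.1% of all genes with a count had one. At least 10 counts in every cell were found for 13 members, against 46% of all genes with a count. Only 8 members were at 10 CPM or more in all 12 cells, namely Cks1b, Ckap5, Tubb4b, Birc5, Rangap1, Smc4, Anp32e and Tmpo, a share of 16% where 32.3% of all genes with a count were.

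**Figure D2:**
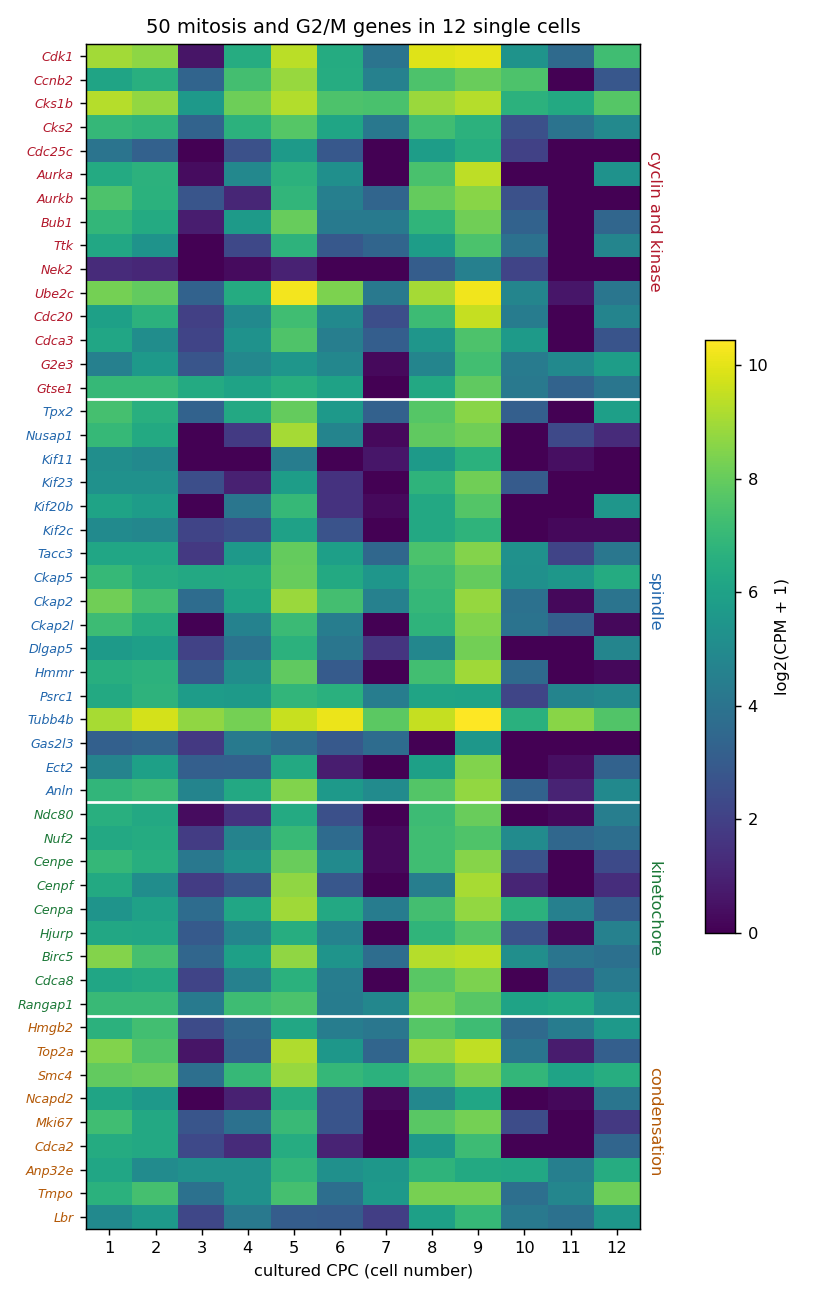
Level of each of the 50 members (rows, grouped by class) in each of the 12 cultured CPCs (columns) as log2(CPM + 1). Columns 9, 5, 8, 1 and 2 are bright over nearly all rows, columns 3, 7, 10 and 11 are dark, and Tubb4b and Cks1b are bright in every column.

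The members peaked in few cells. The highest value lay in cell 9 for 34 members, in cell 5 for 12, in cell 8 for 3 (Rangap1, Hmgb2 and Tmpo) and in cell 1 for 1 (Cks1b). Of the 9701 filtered genes (mean CPM of 5 or more, counts in at least 3 cells), 13.3% were highest in cell 9 and 11.9% in cell 5. All 50 members lay above their own median in cell 9, 49 in cell 5, 48 in cell 8, 47 in cell 1 and 47 in cell 2, against 21 in cell 4, 15 in cell 12, 12 in cell 6, 7 in cell 10, 2 in cell 7 and 1 each in cells 3 and 11. Over all filtered genes these shares were 59.2% in cell 9, 56.3% in cell 5, 45.5% in cell 8, 50.1% in cell 1, 55.1% in cell 2, 51.9% in cell 4, 47.5% in cell 12, 57.2% in cell 6, 41.7% in cell 10, 48.6% in cell 7, 36.6% in cell 3 and 49.2% in cell 11. Without cell 9, cell 5 held the highest value of 26 members, and of 13.5% of the genes past the filter in the remaining cells.

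The height of these peaks also stood out from the rest of the table. Of the 49 members past the filter (Nek2, with a mean of 3.10 CPM, was not), 20 reached at least 10 times their median in their highest cell, where 5.42% of all filtered genes did. The median of this ratio was 8.06 over the members and 2.28 over all filtered genes. Without cells 3 and 10, 7 of 49 members reached 10 times their median, where 2.6% of the 9613 genes past the filter in those cells did. In all 12 cells, 38 members reached 5 times their median (12.7% of all filtered genes) and 13 reached 20 times (3.03%). The ratio of Kif11 is counted among the 20, but its median, 0.466 CPM, lay under the level of 3 counts, so its size is not given.

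The cyclin and kinase class carried the largest class sum in cell 9, at 6189 CPM over its 15 genes. Besides cyclins and kinases it holds Cdk-binding proteins, a Cdk phosphatase, genes of protein destruction and Gtse1. The class had a lowest sum of 145 CPM in cell 11, and its highest cell was 6.32 times the median cell. Cdk1, the kinase that starts mitosis, ran from 0.527 CPM (2 counts, cell 3) over a median of 120 CPM to 1056 CPM in cell 9. Next came cell 8 at 973 CPM, then cell 5 at 658 CPM and cell 1 at 516 CPM. Its partner Ccnb2, cyclin B2, kept another order. It was highest in cell 5 at 449 CPM, with a median of 91.1 CPM and 0 in cell 11. Cell 10, with only 40.6 CPM of Cdk1, had 182 CPM of Ccnb2, which was as much as the 184 CPM of cell 8, whereas cell 1 had 67.2 CPM. Cdc25c, the phosphatase that removes the inhibiting phosphates from Cdk1, had counts in 8 cells, with 89.1 CPM in cell 9, 56.0 CPM in cell 8 and 50.5 CPM in cell 5.

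The small Cdk-binding proteins behaved more evenly. Per kilobase of exon, Cks1b had the highest median of the class at 226 CPM per kb, followed by Cks2 at 125, Ube2c at 63.0 and Ccnb2 at 59.5 CPM per kb. Cks1b ran from 49.8 to 627 CPM with a median of 244 CPM, cell 1 being highest and cell 3 lowest. The lowest level of Cks2 was 4.88 CPM, in cell 10, and the highest 207 CPM, in cell 5, a peak of 2.38 times its median of 86.8 CPM. Stretches of at least 95% identity to 3 other annotated genes cover 34.7% of the Cks2 transcript, which makes its count uncertain.

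The mitotic kinases had lower medians and steeper peaks. Aurka, the centrosomal Aurora kinase, had a median of 37.3 CPM, was at 0 in cells 7, 10 and 11, and reached 681 CPM in cell 9, with cell 8 next at 174 CPM. Aurkb, the Aurora kinase of the chromosomal passenger complex, had a median of 15.5 CPM and reached 379 CPM in cell 9, 254 CPM in cell 8 and 185 CPM in cell 1, with 0 in cells 11 and 12. Both peaks were over 10 times the median of all 12 cells, at 18.2 and 24.4 times. Cells 3 and 10, at 5.80 and 5.07 CPM of Aurkb, lowered the median behind the latter. The spindle checkpoint kinases Bub1 and Ttk (Mps1) were both highest in cell 9, at 286 and 178 CPM, and second in cell 5, at 259 and 105 CPM. Nek2, a centrosome kinase, had the lowest mean of all members, with counts in 7 cells with a peak of 22.4 CPM in cell 9 and 7.45 CPM in cell 8.

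Genes of protein destruction split between cells 5 and 9. Ube2c, the ubiquitin-conjugating enzyme of the anaphase-promoting complex, reached 1219 CPM in cell 5 and 1196 CPM in cell 9, over a median of 164 CPM and a lowest value of 0.541 CPM in cell 11. Cdc20, which activates that complex in mitosis, reached 737 CPM in cell 9 but 151 CPM in cell 5, over a median of 30.4 CPM, so that cell 9 stood 24.3 times above the median. Cdca3, which helps to trigger the destruction of Wee1, was at 187 CPM in cell 5 and 186 CPM in cell 9. G2e3, a ubiquitin ligase named for its G2/M expression, and Gtse1, a microtubule-binding regulator of p53, were highest in cell 9 at 154 and 238 CPM. Gtse1 was still at 83.6 CPM in cell 3, where Cdk1 was near the limit of counting. Exons of Ube2c overlap the opposite-strand gene Tnnc2 over 22.8% of their bases, but Tnnc2 had 0 counts in every cell. Cdc20 overlaps Elovl1, which was counted at up to 218 CPM, over 2.96% of its exon bases, and the strand rule of the counting was not given in the sources used here.

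Spindle genes summed to between 241 CPM in cell 10 and 5868 CPM in cell 9, which was 4.66 times the median cell. Leaving out cell 1, 2, 5, 6 or 8 raised this ratio to 7.11, since the median then moved to a lower cell. Tubb4b, a beta-tubulin that also serves interphase microtubules, dominated the class. It had the highest median of all members at 300 CPM per kb, ran from 99.3 CPM in cell 10 over a median of 480 CPM to 1394 CPM in cell 9, and was second in cell 6 at 1114 CPM. Spindle genes therefore made up 65.1% of the member sum in cell 3, 53.4% in cell 6 and 52.8% in cell 11, where Tubb4b was at 419, 1114 and 385 CPM. The processed copies Tubb4b-ps1 and Tubb4b-ps2 match 83.8% and 83.7% of its transcript at 95% identity or more, so the count of Tubb4b is uncertain.

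Motors of the spindle had few or no counts in several cells. Kif11, the plus-end motor that pushes the poles apart, had no count in 5 cells and its highest values in cell 9 (99.8 CPM), cell 8 (50.7 CPM) and cell 1 (34.7 CPM). Kif23, the central spindle motor of cytokinesis, had a median of 5.85 CPM and reached 288 CPM in cell 9 and 109 CPM in cell 8. Kif20b, also a cytokinesis motor, was at 201 CPM in cell 9 and at 44.3 CPM in cell 12, where Kif11 and Kif23 had no count. Kif2c, a microtubule-depolymerising kinesin, had counts in 10 cells and a highest level of 111 CPM, in cell 9.

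Microtubule and assembly factors were more widely counted. Ckap2, a microtubule-stabilising protein, had the next highest median per length within the spindle class at 36.5 CPM per kb, followed by Psrc1 at 34.5 and Tacc3 at 17.7 CPM per kb. Ckap2 was highest in cell 5 (474 CPM) and cell 9 (445 CPM) and had 0.18 CPM, a single count, in cell 11. Nusap1, which bundles spindle microtubules, peaked in cell 5, at 521 CPM over a median of 14.7 CPM, with 288 CPM in cell 9 and 237 CPM in cell 8. That median lies midway between 3.97 CPM in cell 11 and 25.5 CPM in cell 6. Tpx2, which activates Aurora A on the spindle, and Tacc3, which binds microtubules with chTOG, reached 384 and 364 CPM in cell 9. Hmmr and Dlgap5, both spindle-assembly proteins, reached 502 and 294 CPM there, and Ckap2l reached 358 CPM. In contrast, Ckap5 (chTOG), a microtubule polymerase used through the whole cycle, stayed between 37.2 and 261 CPM in all 12 cells, and Psrc1 had the lowest ratio of highest to median cell of all members, at 1.93.

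Beside the motors above, the members listed under cytokinesis were Ect2, Anln and Gas2l3. Ect2, which activates RhoA at the cleavage furrow, was at 349 CPM in cell 9, 79.4 CPM in cell 5 and 60.9 CPM in cell 8, over a median of 8.38 CPM, a ratio of 41.7. Cells 3 and 10, at 7.91 and 0 CPM of Ect2, lowered that median. Anln, the anillin scaffold of the contractile ring, was shared more evenly between cell 9 (429 CPM) and cell 5 (353 CPM), with 203 CPM in cell 8. Gas2l3, which links actin and microtubules in late mitosis, kept a low level with a peak of 45.3 CPM in cell 9, was next in cell 4 at 18.5 CPM, and had no count in cells 8, 10, 11 and 12.

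The sum of the kinetochore genes was 60.5 CPM in cell 7 and 3248 CPM in cell 9, and the latter was 10.1 times the median cell, and 5.42 times without cells 3 and 10. Cenpf, a large outer kinetochore and nuclear matrix protein, rested on a pair of cells. It was at 542 CPM in cell 9 and 416 CPM in cell 5, then at 81.1 CPM in cell 1, 33.8 CPM in cell 2 and 21.1 CPM in cell 8, over a median of 5.93 CPM. Its highest cell was 91.4 times the median of all 12 cells, which cells 3 and 10, at 2.64 and 1.13 CPM, lowered. Cenpe, the kinesin that carries chromosomes to the metaphase plate, was at 375 CPM in cell 9, 264 CPM in cell 5 and 152 CPM in cell 8.

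The microtubule-binding Ndc80 complex was represented by Ndc80 and Nuf2. Ndc80 was highest in cell 9 (269 CPM) and cell 8 (141 CPM) over a median of 13.1 CPM, and had 0 counts in cells 7 and 10. Nuf2 followed the same pair of cells at 189 and 151 CPM but was counted in all 12 cells. Cenpa, the centromeric histone H3, had the highest median per length of the class, 40.5 CPM per kb, was lowest in cell 12 (6.85 CPM) and highest in cell 5 (489 CPM), and was at 103 CPM in cell 10. Hjurp, the chaperone that deposits Cenpa, was at 91.3 CPM in cell 5, 199 CPM in cell 9 and 5.44 CPM in cell 10.

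The chromosomal passenger genes among the members were Birc5, Cdca8 and Aurkb. Birc5 (survivin) ran from 10.0 CPM in cell 3 over a median of 51.2 CPM to 706 CPM in cell 9, with 614 CPM in cell 8, 413 CPM in cell 5 and 363 CPM in cell 1. Cdca8 (borealin) was likewise highest in cell 9 (330 CPM) and cell 8 (221 CPM), over a median of 21.7 CPM. Aurkb had the same first and second cell, whereas a further gene of that complex outside the members, Incenp, was highest in cell 5 at 125 CPM, with 79.7 CPM in cell 9. Rangap1, the GTPase activator of Ran, which also binds kinetochores, differed from these. It was never under 18.7 CPM, peaked in cell 8 at 310 CPM, and was at 74.3 CPM in cell 11, where Aurkb, Cenpe and Cenpf had no count.

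Chromosome condensation genes had the lowest class sum in cell 9, 2228 CPM, and ran down to 82.8 CPM in cell 3. Their highest cell was 5.35 times the median cell, 2.72 times without cells 3 and 10, and 8.68 times when cell 1, 2, 5, 8 or 12 was left out. Top2a, the topoisomerase that untangles sister DNA, ran from 0.527 CPM in cell 3 over a median of 30.2 CPM to 699 CPM in cell 9, followed by 583 CPM in cell 5, 443 CPM in cell 8 and 349 CPM in cell 1. Mki67, the protein known as Ki-67 that coats mitotic chromosomes and is a common marker of dividing cells, had 305 CPM in cell 9, 220 CPM in cell 8, 149 CPM in cell 1 and 135 CPM in cell 5. Its median was 9.85 CPM, and it had no count in cells 7 and 11. Cdca2, which recruits a phosphatase to chromatin at mitotic exit, had counts in 9 cells, the highest being 143 CPM in cell 9.

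Of the condensin subunits, Smc4 was present in every cell, its level lying between 13.2 CPM (cell 3) and 453 CPM (cell 5), with the highest median per length of the class at 29.0 CPM per kb. It was still at 119 CPM in cell 10 and 105 CPM in cell 7. Ncapd2, a regulatory subunit of the same complex, was at 90.3 CPM in cell 5, 0.19 CPM in cell 7 and 0 in cells 3 and 10. The chromatin protein Hmgb2 peaked in cell 8 at 207 CPM and in cell 2 at 156 CPM.

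Nuclear envelope and histone chaperone genes departed most from the class. Tmpo (LAP2) and Lbr (lamin B receptor) anchor chromatin to the nuclear envelope, which is taken apart and rebuilt around mitosis. Tmpo was at 319 CPM in both cell 8 and cell 9, and at 270 CPM in cell 12, over a median of 74.2 CPM. Lbr was highest in cell 9 (126 CPM) and cell 8 (60.5 CPM), but at 7.36 CPM in cell 5, the cell with the second highest sum of members. Anp32e, a chaperone of the histone variant H2A.Z, stayed between 21.5 and 115 CPM, with 88.6 CPM in cell 12 and 74.9 CPM in cell 10. The condensation class made up 31.9% of the member sum in cell 12, its largest share in any cell, against 12.7% in cell 9. Of its 577 CPM in cell 12, Tmpo gave 270 CPM and Anp32e 88.6 CPM. Smc4 was at 89.3 CPM there and Top2a at 7.91 CPM.

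**Figure D3:**
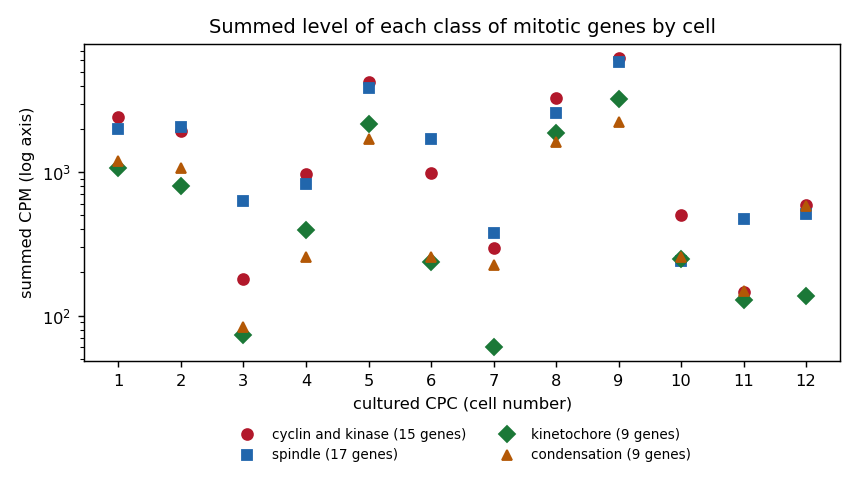
Summed CPM of the members of each class (marker shape and colour) in each of the 12 cultured CPCs, on a log axis. Every class is highest in cell 9, from 2228 CPM for condensation to 6189 CPM for cyclin and kinase genes, and kinetochore genes reach the lowest sum, 60.5 CPM in cell 7.

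Cells with high member sums were also set side by side, counting members at least 3 times higher in one cell with at least 30 counts there. Between cells 5 and 8 this held for 7 of the 50 members in cell 5, where 17.4% of all filtered genes did so, and for 2 in cell 8, where 7.38% did, so neither count lay above the share of all genes. Those higher in cell 5 were Cenpf (416 against 21.1 CPM), Cdca3, Ckap2, Dlgap5, Cenpa and Ncapd2, with Gas2l3 at 12.3 CPM against 0 counts, and those higher in cell 8 were Lbr (60.5 against 7.36 CPM) and Nek2. Cell 9 was at least 3 times higher than cell 5 for 12 of the 50 members, against 10.1% of all filtered genes, among them Aurka (681 against 103 CPM), Cdc20, Kif23, Ect2 and Lbr. Against cell 8 this held for 15 members (14.7% of all filtered genes) and against cell 1 for 22 (10.3% of all filtered genes). Since each cell is 1 library, these differences describe the cells shown and carry no estimate of error beyond counting.

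Levels of the members moved together from cell to cell. Over the 12 cells, the median Pearson's r of log2(CPM + 1) was 0.77 for the 1176 pairs of the 49 members past the filter (5th to 95th percentile 0.41 to 0.93), and 0.03 for the 47049850 pairs of all filtered genes (-0.51 to 0.57). The points are cells of 1 group, all genes share their libraries and depth, and no p is given. Only 1 pair of members was below 0, Gas2l3 with Anp32e at -0.03. The closest pairs were Ube2c with Ckap2, Ndc80 with Ncapd2, and Cdc25c with Birc5, at 0.98, 0.98 and 0.97. The median r was 0.79 within a class and 0.77 across classes, and by class it was 0.84 for kinetochore, 0.80 for cyclin and kinase, 0.78 for spindle and 0.70 for condensation genes. Of the 49 members, 43 had r of at least 0.70 with the mean of the other members, where 5.71% of all filtered genes, members included, reached it with the mean of the members. The 6 below were Gas2l3 (0.48), Anp32e (0.59), G2e3 (0.61), Lbr (0.63), Psrc1 (0.63) and Tubb4b (0.69). Spearman's coefficient gave a median of 0.79, and without cell 9 the median of Pearson's r was 0.73.

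**Figure D4:**
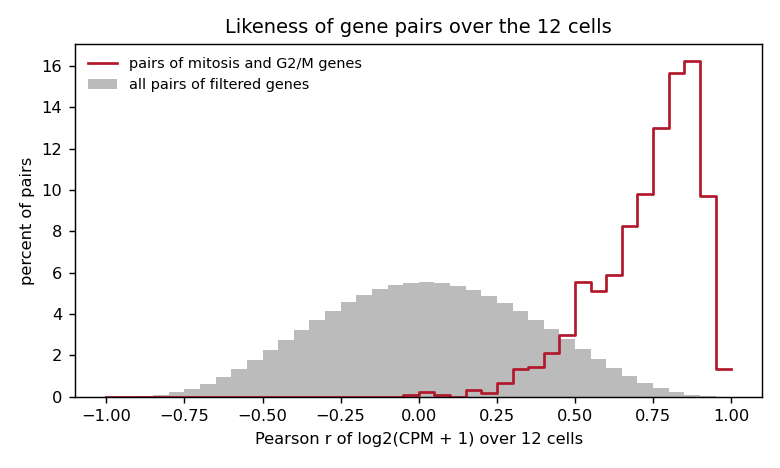
Distribution of Pearson's r of log2(CPM + 1) over the 12 cells, in percent of pairs, for pairs of members (red line, 1176 pairs) and for all pairs of filtered genes (grey bars, 47049850 pairs). The member pairs lie to the right, with a median of 0.77 against 0.03.

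Other mitotic genes were listed in the same 4 classes. Of 65 further genes, 62 passed the filter, and 42 of these were highest in cell 9, where 13.3% of all filtered genes were. An r of at least 0.70 with the mean of the members was found for 56, against 5.71% of all filtered genes. By class this was 17 of 19 cyclin and kinase genes, 17 of 18 spindle genes, 16 of 16 kinetochore genes and 6 of 9 condensation genes. The sum of each list was highest in cell 9, at 8.01 times the median cell for cyclin and kinase, 6.44 for spindle, 3.45 for kinetochore and 2.32 for condensation genes. The last had 1992 CPM in cell 1 against 2020 CPM in cell 9, and none of its genes reached 10 times its median. Cyclin B1 (Ccnb1) ran from 0 in cells 10 and 11 to 784 CPM in cell 9 and 534 CPM in cell 5, with Pttg1 (securin) and Ccna2 (cyclin A2) the next most abundant of their class. Plk1, the Polo kinase, was at 543 CPM in cell 9, 114 CPM in cell 8 and 108 CPM in cell 5, and at 0 in cells 7, 11 and 12. The most abundant further spindle genes were Hn1, Racgap1 and Prc1, the most abundant kinetochore genes Bub3, Mad2l1 and Spc25, and the most abundant condensation genes H2afz, Ncaph2 and Smc2.

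Known regulators of the programme varied less in sum than the members, whose ratio of highest to median cell was 6.23, but some varied widely one by one. The 12 genes listed from the DREAM, B-MYB and FOXM1 complexes and the E2F family summed to 173 CPM in cell 10 and 502 CPM in cell 9. Their ratio of highest to median cell was 1.69. Of the 11 past the filter, 3 had r of at least 0.70 with the members, against 5.71% of all filtered genes. Foxm1, which activates late G2 genes, was at 108 CPM in cell 9 and 57.7 CPM in cell 5, over a median of 19.8 CPM, and at 0 in cell 11. Mybl2 (B-MYB) was highest in cell 1 at 46.6 CPM, over a median of 6.57 CPM, and at 0 in cells 3, 4, 5, 6 and 11. The most abundant of these genes were E2f4, E2f5 and E2f1. The 13 inhibitors of the cycle and p53 targets, Rbl2 listed among them, summed to between 999 CPM in cell 10 and 3842 CPM in cell 1. They were led by Ccng1, Cdkn1a and Mdm2, and 3 of 11 past the filter had r of at least 0.70, against the same 5.71%. Cdkn1a (p21), at 101 to 1430 CPM, was highest in cell 1, where Cdk1 was at 516 CPM. Cdkn2b (p15) went the other way from the members, with r of -0.64, and was highest in cell 3 at 200 CPM.

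DNA replication genes were high in cells 1, 2, 8 and 12, of which cell 12 was low in mitotic genes. The 43 S phase genes summed to 546 CPM in cell 11, a median of 2155 CPM and 7924 CPM in cell 2, with cell 1 next at 7750 CPM. Of 42 past the filter, 25 had r of at least 0.70 with the members, against 5.71% of all filtered genes. Cell 12 had 5196 CPM of S phase genes, near cell 8 (5626 CPM), but 1808 CPM of the 50 members against 9329 CPM in cell 8, so its ratio of members to S phase genes, 0.348, was the lowest. The ratio was 4.67 in cell 9 and 4.05 in cell 5, the highest among the cells, and 0.86 in cell 1 and 0.74 in cell 2. In cell 12, Tmpo, Anp32e and G2e3 (56.1 CPM) were above their medians, while Ccnb2 (6.15 CPM), Top2a (7.91 CPM) and Mki67 (2.28 CPM) were below theirs. Rrm2, Rrm1 and Pcna were the most abundant S phase genes.

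**Figure D5:**
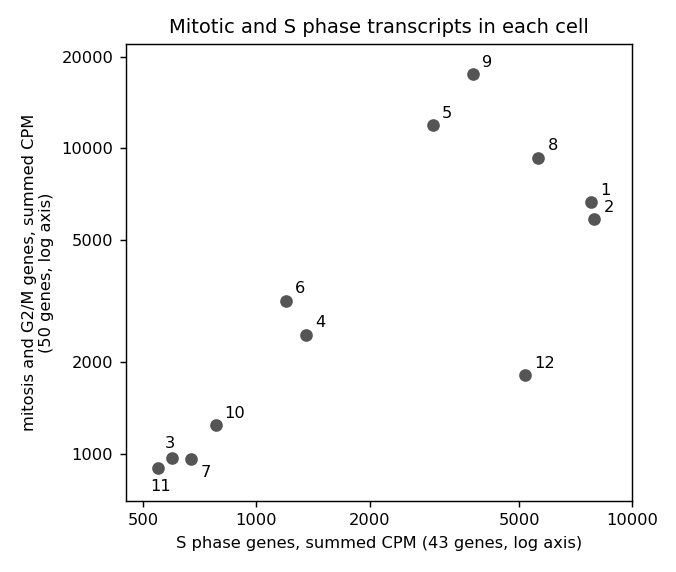
Summed CPM of the 50 members against summed CPM of 43 S phase genes in each of the 12 cells (numbers beside the points), both on log axes. Cells 9 and 5 lie highest for the members at 17533 and 11950 CPM, cells 1 and 2 farthest right, and cell 12 at 5196 CPM of S phase genes but 1808 CPM of members.

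Outside all lists, the gene most like the mean of the members over the 12 cells was Aimp1, a scaffold protein of the tRNA synthetase complex, with r of 0.97 and a narrow range of 59.7 to 178 CPM. Others at this end were Cit (citron kinase, which acts in cytokinesis), Nde1, Nsl1 (a kinetochore protein), Iqgap3, Cdca5 (sororin, which protects cohesion of sister chromatids), Ube2t, Dynlt1a and Kpna2. Kpna2, an importin, had r of 0.92 and reached 1052 CPM in cell 9 over a median of 140 CPM. The lowest r was that of Pdia3, a protein disulfide isomerase of the endoplasmic reticulum, at -0.94, with 832 CPM in cell 5, 898 CPM in cell 9 and 2354 CPM in cell 11. Igf1, the growth factor, was at 0 in cells 1, 2, 5, 8 and 9, and highest in cell 10 at 213 CPM. At the low end were also Cluap1, Rab2a, Clca3a1, Dnajb6, Il11ra1, Stambp, Tmem59 and Atraid. These genes were picked for their likeness or unlikeness among 9701 genes, and their r is a description.

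Read assignment limits a few members. Exons of 8 members overlap a gene on the opposite strand (Nek2, Ube2c, Cdc20, Nusap1, Tacc3, Ckap2l, Tubb4b and Tmpo), and without the strand the reads of such partners cannot be told apart. Where the partner was in the table, it had 0 counts for Ube2c (Tnnc2) and Tubb4b (Fam166a), and up to 74.2 CPM for Nusap1 (Oip5) and 83.3 CPM for Tacc3 (Tmem129), over 4.25% and 9.49% of the exon bases of these members. Copies of at least 95% identity covered over 30% of the transcript for Tubb4b and Cks2, and 24.2% for Hmgb2. All other members had shorter matches or none.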

How the data were processed

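Messenger RNA of 12 single cultured CPCs was sequenced as paired reads from Smart-Seq v4 and Nextera XT libraries. The authors mapped the reads to mm10 with STAR 2.5.2b at default parameters and kept unique alignments. The table deposited by the authors holds read counts for each gene in each cell, not normalized. The counting program, annotation and strand rule are not given in the sources used here. The cell filter of the study (1000 genes, at most 10% mitochondrial counts) removed 0 cells.

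CPM were counts over the total of the cell times 1000000. The filter was a mean of at least 5 CPM and a count in at least 3 cells. Correlations used log2(CPM + 1). Exon lengths and overlaps came from GENCODE vM21, promoters from RefSeq GRCm38.p6, and close copies from BLAST 2.17.0. Alternative scalings came from edgeR 4.0.16 (TMM) and DESeq2 1.42.0 (size factors), on counts. Single cells are no replicates of a condition, so nothing was tested. Members were ordered by role, not first by level. Those described in each class include the members of highest median per kilobase, of highest ratio to the median cell and of fewest cells, and elsewhere the 3 most abundant genes of a list and the 10 most and 10 least like the members. Of these, 1 gene is not reported here. Steps were tested on simulated data. The members, gene lists and measures were chosen with earlier results of these data known. Doublets were not called. R 4.3.3, matplotlib 3.10.9, scipy 1.17.1, pandas 2.3.3, numpy 2.4.6 and Python 3.11.15 were used.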

Additional observations from a re-analysis of the deposited data

How the results depend on the processing

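Of 60 values recomputed under alternatives other than leaving out a single cell, 52 moved by less than 1.5 times (counts and ratios) or 1 SD (medians), and of 120 values with 1 cell left out 110 did. Members counted in every cell numbered 21 at 1 count (53.1% of all genes with a count), 13 at 10 counts (46%) and 8 at 10 CPM (32.3%). Members with a highest cell at 10 times their median numbered 20 (5.42% of all filtered genes), 38 at 5 times (12.7%), 13 at 20 times (3.03%) and 7 without cells 3 and 10 (2.6%). Without those cells the median of the member sum went from 2813 to 4517 CPM. This was less than 1 SD over cells, a wide limit, since that SD (5313 CPM) exceeds the median itself. The ratio of highest to median cell was then 3.88 for the sum of all members, 5.42 for kinetochore and 2.72 for condensation genes. With each cell left out in turn, that ratio ran from 3.47 to 7.11 for spindle and from 3.86 to 8.68 for condensation genes, the upper values arising where the median moved to a lower cell. No scaling or thinning of depth moved a value past these limits. No paired analysis was possible because there is 1 group of cells. Depth limits detection to about 3 counts, 0.527 to 0.869 CPM, and the cells come from 1 culture type with no named animal, so nothing here measures variation between cultures.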
